A study of Mus musculus with 36 samples.

Results

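The genes described are 10 transcripts of pericentral hepatocytes, the liver cells around the central vein, whose expression depends on Wnt signalling or reads it out. They are Cyp2e1, Cyp1a2, Glul, Slc1a2, Oat, Lhpp, Rhbg, Axin2, Lgr5 and Tbx3, and they were taken by name, as the probe sets annotated to that symbol alone, from the 23152 genes measured. All 10 were measured, by 8 to 23 probe sets each, and no filter on low values was applied.

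Expression was measured on Affymetrix MoGene 2.0 ST arrays in livers of C57BL/6 mice, 1 array per library. The 4 groups were Dpt-null mice given CCl4 (knockout CCl4, 9 libraries), wild-type littermates given CCl4 (wild-type CCl4, 9), Dpt-null mice given olive oil (knockout oil, 10) and wild-type littermates given olive oil (wild-type oil, 8). Dpt encodes dermatopontin, a small protein of the extracellular matrix, and CCl4 is a solvent that injures hepatocytes and scars the liver on repeated dosing. All mice were labelled female and 10 to 12 weeks old. Injections were subcutaneous, 3 a week for 8 weeks at 0.1 ml/kg, with CCl4 at 2% in week 1, 4% in week 2, 5% in week 3, 6% in week 4 and 8% from week 5, and livers were taken 24 hours after the last one. The label gives the knockout only as Dpt-null, with no cell type or time of deletion.

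Endothelial cells of the central vein secrete Wnt ligands and R-spondin, which stabilise beta-catenin in the hepatocytes next to them. In the nucleus beta-catenin joins TCF and LEF factors and switches on a pericentral programme that makes glutamine from ammonia and oxidises foreign compounds. Cyp2e1 is the cytochrome P450 that turns CCl4 into the radical that damages the cell, so CCl4 injury starts in the cells that express these genes. After such injury the programme is lost near the vein and returns as hepatocytes regrow.

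RefSeq promoter windows of 250 bases before to 50 after a transcript start (build GRCm38.p6) were matched for 6 of the 10 genes, Cyp2e1, Cyp1a2, Glul, Slc1a2, Oat and Axin2. They were searched on both strands for the core of the TCF/LEF motif, CTTTGA or its reverse complement TCAAAG, and for the TATA box TATAAA or its reverse complement TTTATA. The windows below are those of the 3 genes with a TCF/LEF core, shown because beta-catenin acts through these factors, with every matched motif in capitals. They lie at chr7:140763569-140763868 on the plus strand (Cyp2e1), chr9:57683606-57683905 on the minus strand (Cyp1a2) and chr2:102706188-102706487 on the plus strand (Slc1a2), each printed 5′ to 3′ along the gene.
Cyp2e1: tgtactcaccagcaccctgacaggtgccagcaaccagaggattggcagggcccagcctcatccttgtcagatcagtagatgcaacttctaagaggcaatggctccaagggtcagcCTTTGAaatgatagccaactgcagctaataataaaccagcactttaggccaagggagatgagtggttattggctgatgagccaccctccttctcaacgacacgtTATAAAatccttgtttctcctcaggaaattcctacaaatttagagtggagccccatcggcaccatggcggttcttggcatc
Cyp1a2: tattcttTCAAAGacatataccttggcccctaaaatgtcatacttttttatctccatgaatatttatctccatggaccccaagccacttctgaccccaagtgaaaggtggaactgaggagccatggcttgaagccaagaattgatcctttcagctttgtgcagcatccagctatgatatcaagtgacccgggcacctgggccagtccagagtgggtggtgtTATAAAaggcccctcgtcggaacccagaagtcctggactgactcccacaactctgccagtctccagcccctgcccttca
Slc1a2: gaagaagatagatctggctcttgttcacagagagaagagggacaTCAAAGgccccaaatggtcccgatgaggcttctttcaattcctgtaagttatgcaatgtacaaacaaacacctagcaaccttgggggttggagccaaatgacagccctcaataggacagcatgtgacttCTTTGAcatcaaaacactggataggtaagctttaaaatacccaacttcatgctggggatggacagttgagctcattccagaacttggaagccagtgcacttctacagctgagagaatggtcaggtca
The core begins 135 bases before the start of Cyp2e1 and 243 before that of Cyp1a2, and 206 and 77 before that of Slc1a2, whose window sits at a start inside the gene's RefSeq span. Cyp2e1 and Cyp1a2 also hold a TATA box, 31 and 29 bases before the start. Of all 32851 promoter windows 16.0% hold the TCF/LEF core and 13.6% the TATA box, so a match in 3 of 6 windows is a description of these letters and not of binding. Also searched were the HNF4A core CAAAGTCCA, found in 0.475% of all windows, and the AHR core GCGTG, found in 32.4%, each on both strands, and neither was present in the 6. The windows of Glul, Oat and Axin2 held none of the 4 motifs.

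Libraries that stood apart touch every result. Dpt read 3.00 to 3.86 in knockout CCl4 livers and, but for a library at 7.40, at most 3.87 in knockout oil livers. Wild-type CCl4 livers read 7.48 to 10.12 apart from a library at 3.18, and wild-type oil livers read 5.59 to 6.48. The library labelled KO oil 10 thus went against its genotype label, and so did the library labelled WT CCl4 1. Col1a1, the main scar collagen, read 9.26 in KO oil 10 against at most 5.88 in the other knockout oil libraries, and 7.18 in WT CCl4 1 against at least 8.28 in the other wild-type CCl4 libraries, so both also lay toward the other treatment. Whether these libraries were exchanged for each other was not tested, and every value over all 36 libraries counts them as labelled. In KO CCl4 5 and WT CCl4 3, the mean of 15 periportal genes was 5.52 and 5.79, where the other libraries of these groups read at least 8.27 and 8.01. KO CCl4 5 had adipocyte markers (6 of 6 measured) at a mean of 8.88 and WT CCl4 3 skeletal muscle markers (8 of 8 measured) at 10.15, where the group medians were 4.35 and 3.62. Results are given for all 36 libraries by label and again without these 4, a setting chosen after the data were seen. That setting kept WT CCl4 4 and 5, whose pancreatic markers (10 of 11 measured) read 11.49 and 6.96 where the group median was 3.99. It also kept WT CCl4 8, with muscle markers at 8.18, and WT CCl4 9, with adipocyte markers at 6.01 (group medians 3.62 and 4.2). Of the oil libraries 6 expressed Y-linked genes despite the female label, 3 of 10 knockout and 3 of 8 wild-type, and no CCl4 library did (0 of 18).

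After CCl4 most of the programme was lower in both genotypes. Of the 10 genes, 7 fell in knockout livers and 8 fell in wild-type livers, and 0 rose in either (limma, adjusted p under 0.05 over all genes). Of all genes 9.89% fell and 13.4% rose in knockout livers, and 11.3% fell and 13.2% rose in wild-type livers. The median log2 difference between CCl4 and oil was -1.33 over the 10 genes in knockout and -1.41 in wild-type livers, where the median over all genes was -0.04 in each. When the 4 libraries were left out, 8 of 10 fell in each genotype, among 13.9% of all genes that fell and 16.2% that rose in knockout livers and 13.2% and 15.7% in wild-type livers. In bulk liver RNA, fewer pericentral hepatocytes and less RNA per cell cannot be told apart. Markers of other cells moved with the falls. The mean of the macrophage markers (7 of 7 measured) was 7.21 to 9.18 in knockout CCl4 and 6.39 to 8.15 in wild-type CCl4 livers, against 5.16 to 8.30 in knockout oil livers, with KO oil 10 at the top, and 5.14 to 5.60 in wild-type oil livers. Bile duct markers (6 of 6) had medians of 5.22 and 5.10 in knockout and wild-type CCl4 livers, against 4.36 and 4.41 in the oil livers, and mesothelium markers (6 of 6) ran from 4.63 to 7.63 and from 4.59 to 7.25, against 3.99 to 6.28 and 3.94 to 4.52. The part of these markers in the results was not tested. Centring the arrays on their medians moved the median of all genes to -0.13 and the split of all calls, with 4710 genes lower and 2505 higher in knockout livers in place of 2289 and 3100. In wild-type livers it gave 5380 lower and 2358 higher in place of 2618 and 3048, and the 10 genes then gave 8 falls in each genotype.

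**Figure D1:**
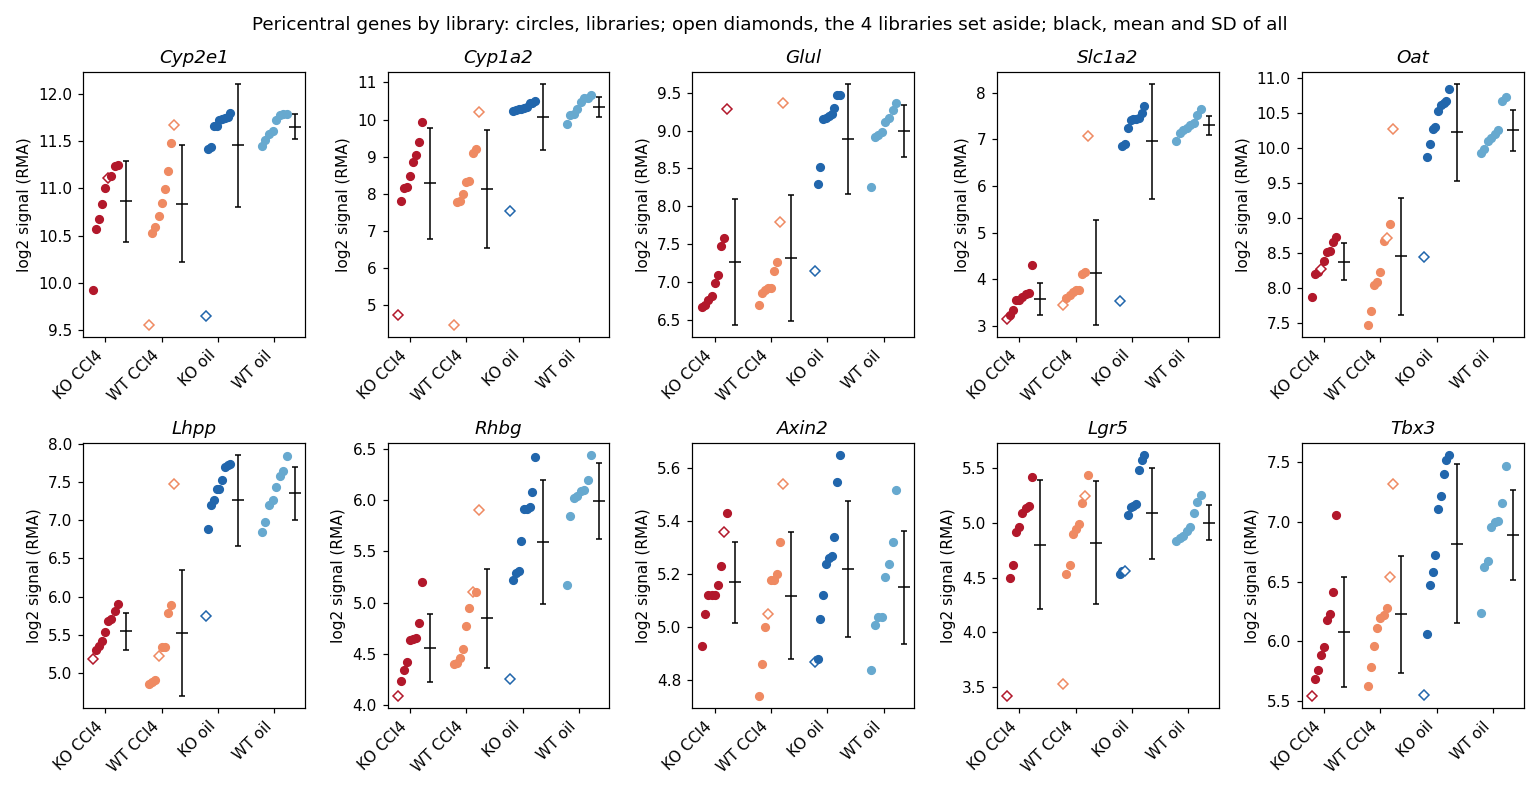
Log2 signal of the 10 genes in each of 36 libraries, by group, with each group's mean and SD in black. Open diamonds are the 4 libraries set aside, and Slc1a2, Oat and Lhpp show CCl4 and oil livers as separate clouds once these are disregarded, whereas Axin2 and Lgr5 overlap throughout.

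Of the P450 enzymes, Cyp1a2 fell in both genotypes and Cyp2e1 passed the test in wild-type livers. The log2 signal of Cyp2e1 ran from 9.93 through a median of 11.01 to 11.25 in knockout CCl4 livers, against 9.65, 11.69 and 11.80 in knockout oil livers. Wild-type CCl4 livers gave 9.56, 10.85 and 11.67, against 11.45, 11.67 and 11.79 in wild-type oil livers. The CCl4 ranges reached into the oil ranges in both genotypes, yet 9 of 9 CCl4 libraries in each genotype lay below the oil median. The difference was -0.60 ± 0.23 in knockout livers (log2 ± SE, 9 against 10 libraries, adjusted p = 0.0513), which did not pass the test, and Cyp2e1 fell by 0.82 ± 0.24 in wild-type livers (9 against 8, adjusted p = 0.012). Without KO oil 10 alone the knockout difference was -0.80 and passed (adjusted p = 0.000739). Leaving out WT CCl4 1, 2 or 3 (-0.60 each), KO CCl4 1 (-0.64) or KO CCl4 9 (-0.65) also brought it past the threshold (adjusted p = 0.0249 to 0.0486). The wild-type libraries do not enter the knockout difference itself, only the spread shared by the 4 groups and the adjustment over all genes. With the 4 libraries left out, Cyp2e1 fell by 0.83 ± 0.13 in knockout and by 0.75 ± 0.14 in wild-type livers, and the knockout CCl4 range of 9.93 to 11.25 lay wholly below the oil range of 11.42 to 11.80. The wild-type fall was lost (-0.49, adjusted p = 0.0646) without the 7 libraries that carried pancreatic, muscle or adipocyte markers, 5 of which are wild-type CCl4 libraries. That fit kept WT CCl4 1, at 11.67, which went against its Dpt label, and the part of this library in the lost call was not tested.

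Cyp1a2, which oxidises caffeine and other planar compounds, had lower group medians after CCl4 in both genotypes. Knockout CCl4 livers gave 4.73, 8.48 and 9.94 as lowest, median and highest log2 signal, against 7.53, 10.30 and 10.49 in knockout oil livers. In wild-type CCl4 livers the values were 4.48, 8.31 and 10.20, against 9.88, 10.38 and 10.65 in wild-type oil livers. The lowest CCl4 values belong to KO CCl4 5 and WT CCl4 3, the libraries with low periportal genes. Cyp1a2 fell by 1.77 ± 0.52 in knockout livers (adjusted p = 0.0113) and fell by 2.20 ± 0.55 in wild-type livers (adjusted p = 0.00375). Leaving out the 4, it fell by 1.61 ± 0.21 and by 1.97 ± 0.23, and CCl4 livers then lay wholly below oil livers in both genotypes. Without the 6 Y-expressing libraries, with KO oil 10 kept, the knockout difference was -1.66 and was not called (adjusted p = 0.0669). It was called when the 4 libraries were left out together with these 6.

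The genes of ammonia and glutamine handling fell in both genotypes, Slc1a2 the furthest. Slc1a2 encodes a glutamate carrier that in liver sits on the pericentral hepatocytes that make glutamine. Its log2 signal was 3.15, 3.56 and 4.30 in knockout CCl4 livers, against 3.53, 7.43 and 7.71 in knockout oil livers. Wild-type CCl4 livers had 3.44, 3.76 and 7.07, against 6.97, 7.28 and 7.65 in wild-type oil livers. The overlaps came from KO oil 10, at 3.53, and WT CCl4 1, at 7.07, the libraries that went against their Dpt label. Slc1a2 fell by 3.39 ± 0.39 in knockout livers (adjusted p = 1.34e-07) and fell by 3.16 ± 0.41 in wild-type livers (adjusted p = 2.73e-06), to 9.54% and 11.2% of the oil level. Apart from WT CCl4 1 the CCl4 livers read at most 4.30, where array medians over all genes were 4.11 to 4.38. Whether a floor of the signal limits these percentages was not tested. With the 4 left out Slc1a2 fell by 3.72 ± 0.13 and by 3.48 ± 0.13, and the highest CCl4 value, 4.30, lay far under the lowest oil value, 6.86.

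Glul encodes glutamine synthetase, which captures ammonia in the layer of hepatocytes next to the vein. It read 6.67, 6.99 and 9.29 in knockout CCl4 livers, against 7.14, 9.18 and 9.47 in knockout oil livers. The wild-type values were 6.69, 6.92 and 9.37 after CCl4, against 8.25, 9.05 and 9.37 after oil. KO CCl4 1, 3 and 5, at 7.48, 7.58 and 9.29, lay inside the knockout oil range, whose lowest value, 7.14, was that of KO oil 10. In wild-type livers WT CCl4 1, at 9.37, reached the oil range. KO CCl4 5 carries the adipocyte markers, whose part in its value of 9.29 was not tested. Glul fell by 1.63 ± 0.32 in knockout (adjusted p = 0.000205) and fell by 1.69 ± 0.33 in wild-type livers (adjusted p = 0.000448), and without the 4 libraries it fell by 2.08 ± 0.16 and by 2.05 ± 0.17. Among oil livers Glul read 8.25 to 9.15 in the 6 Y-expressing libraries. It read 8.94 to 9.47 in the other 11 once KO oil 10 is set aside. Glul was called lower in both genotypes when the 6 Y-expressing libraries were left out. The part of this imbalance between treatments in the size of the falls was not tested.

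Oat, the mitochondrial ornithine aminotransferase that leads ornithine toward glutamate, read 7.88, 8.39 and 8.73 in knockout CCl4 livers, against 8.45, 10.41 and 10.83 in knockout oil livers. In wild-type livers it read 7.48, 8.23 and 10.26 after CCl4, against 9.93, 10.17 and 10.72 after oil. Apart from WT CCl4 1 and KO oil 10 the CCl4 and oil ranges did not overlap. Oat fell by 1.84 ± 0.26 in knockout (adjusted p = 2.59e-06) and fell by 1.80 ± 0.27 in wild-type livers (adjusted p = 2e-05). Rhbg, an ammonium channel of the hepatocyte membrane, read 4.09, 4.64 and 5.20 in knockout CCl4 livers, against 4.26, 5.75 and 6.42 in knockout oil livers. It read 4.40, 4.77 and 5.90 in wild-type CCl4 livers, against 5.17, 6.06 and 6.44 in wild-type oil livers. Rhbg fell by 1.03 ± 0.21 (adjusted p = 0.000315) and by 1.14 ± 0.22 (adjusted p = 0.000322), to 48.9% and 45.4% of the oil level in knockout and wild-type livers.

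Lhpp, a phosphatase that acts on phosphohistidine, also fell in both genotypes. Its values were 5.19, 5.54 and 5.91 in knockout CCl4 livers, against 5.75, 7.41 and 7.73 in knockout oil livers. After CCl4 the wild-type values were 4.86, 5.34 and 7.47, against 6.84, 7.36 and 7.84 after oil. Lhpp fell by 1.71 ± 0.24 in knockout (adjusted p = 3.42e-06) and by 1.83 ± 0.26 in wild-type livers (adjusted p = 8.19e-06). Once the 4 libraries were left out, the CCl4 range lay wholly below the oil range for 7 of the 10 genes in knockout livers, Cyp2e1, Cyp1a2, Glul, Slc1a2, Oat, Lhpp and Rhbg, and for 6 in wild-type livers, the same without Cyp2e1. Such separation held for 3.08% of all genes in knockout and 3.01% in wild-type livers.

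Of the direct readouts of the Wnt signal, Axin2 and Lgr5 were not called in either genotype. Axin2, a scaffold of the beta-catenin destruction complex that is itself switched on by beta-catenin, read 4.93, 5.12 and 5.43 in knockout CCl4 livers, against 4.87, 5.25 and 5.65 in knockout oil livers. It read 4.74, 5.18 and 5.54 in wild-type CCl4 livers, against 4.84, 5.11 and 5.52 in wild-type oil livers. The groups overlapped over almost their whole range. The difference was -0.05 ± 0.10 in knockout (95% interval -0.26 to 0.15) and -0.03 ± 0.11 in wild-type livers (-0.25 to 0.19), and neither was called (adjusted p = 0.763 and 0.866).

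Lgr5, the R-spondin receptor of pericentral hepatocytes, had log2 signals of 3.42, 4.96 and 5.42 in knockout CCl4 livers, against 4.53, 5.15 and 5.62 in knockout oil livers. Wild-type CCl4 livers had 3.53, 4.95 and 5.44, against 4.84, 4.94 and 5.26 in wild-type oil livers. The lowest CCl4 values came from KO CCl4 5 and WT CCl4 3, and apart from these the groups overlapped. The difference was -0.28 ± 0.21 in knockout (-0.70 to 0.13, adjusted p = 0.345) and -0.18 ± 0.22 in wild-type livers (-0.62 to 0.26, adjusted p = 0.569). Leaving out the 4 libraries gave -0.17 ± 0.14 and -0.06 ± 0.15. Over all 36 arrays Lgr5 had a mean log2 signal of 4.93 and Axin2 of 5.17, where array medians over all genes were 4.11 to 4.38.

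Tbx3, a T-box transcription factor that beta-catenin switches on in pericentral hepatocytes, was lower after CCl4 but less firmly. It read 5.54, 5.95 and 7.06 in knockout CCl4 livers, against 5.55, 6.92 and 7.56 in knockout oil livers. Wild-type livers read 5.62, 6.19 and 7.32 after CCl4, against 6.24, 6.98 and 7.47 after oil. Ranges overlapped in both genotypes, also without the 4 libraries. Tbx3 fell by 0.74 ± 0.23 in knockout (adjusted p = 0.0158) and by 0.67 ± 0.24 in wild-type livers (adjusted p = 0.041). The wild-type call was lost on leaving out any 1 of 11 libraries (WT CCl4 4, 5, 6, 7, 8 or 9 and WT oil 2, 3, 4, 5 or 8), with differences of -0.67 to -0.58. It was also lost with a hepatocyte mean as covariate (-0.58, adjusted p = 0.109) and without the 7 libraries that carried other tissue markers (-0.45, adjusted p = 0.29). The fit without the 7 kept WT CCl4 1, at 7.32. Both calls were lost without the 6 Y-expressing libraries, at -0.64 and -0.59 (adjusted p = 0.0909 and 0.157). That fit kept the 4 libraries set aside, and with these left out as well both falls were called. Leaving out the 4 alone, Tbx3 fell by 0.82 ± 0.19 in knockout (adjusted p = 0.00094) and by 0.87 ± 0.20 in wild-type livers (adjusted p = 0.00117).

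The changes of single genes were also set against each other within libraries, and since these pairs were chosen after their values were seen the differences are given as a description with no test. The log2 change of Glul minus that of Axin2 was -1.58 in knockout and -1.66 in wild-type livers, and minus that of Lgr5 it was -1.34 and -1.51. The change of Slc1a2 minus that of Cyp2e1 was -2.79 and -2.34. Leaving out the 4 libraries gave -1.96 and -1.97 against Axin2, -1.91 and -1.99 against Lgr5, and -2.89 and -2.72 for Slc1a2 against Cyp2e1.

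**Figure D2:**
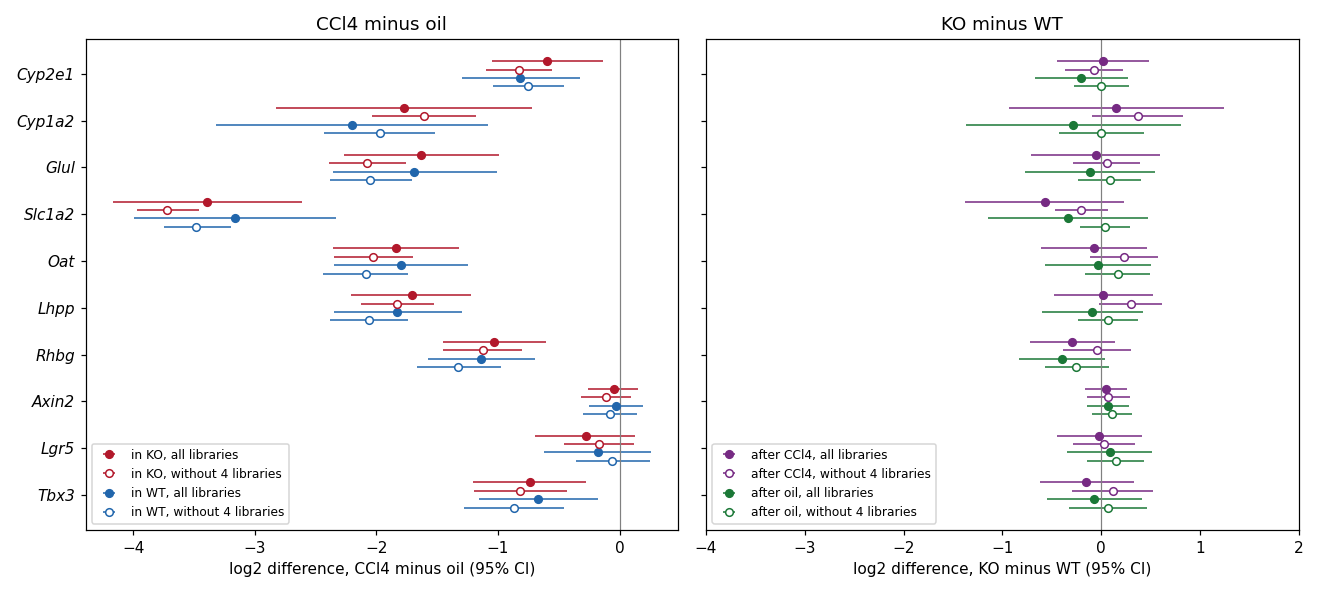
Log2 differences with 95% confidence intervals for the 10 genes, CCl4 minus oil (left) and knockout minus wild type (right), from all libraries (filled) and without 4 libraries (open). On the left Slc1a2 lies lowest (-3.39 in knockout and -3.16 in wild-type livers) and the intervals of Axin2 and Lgr5 include 0, and on the right every interval includes 0.

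Single probe sets, which read separate stretches of a transcript on the same RNA and are not replicates, were also fitted one by one. Of 141 probe sets of the 10 genes, 67 fell in knockout and 72 in wild-type livers and 0 rose, where 3.85% and 3.56% of all probe sets on the array fell. All 11 probe sets of Oat fell in each genotype, as did 11 of 12 of Glul and 15 of 19 of Slc1a2, whose differences ran from -5.65 to 0.01 in knockout and from -5.16 to 0.08 in wild-type livers. The 4 Slc1a2 probe sets that were not called had mean signals of 1.79 to 4.04, against 3.95 to 8.68 for the 15 that fell. For Axin2, 1 of 18 fell in knockout and 0 in wild-type livers, with 10 and 9 of the 18 below 0. That probe set had the highest mean signal of the 18, 7.05 against a median of 5.39, and differences of -0.89 and -0.59. For Lgr5, 0 of 23 fell in knockout and 2 in wild-type livers. These 2 had mean signals of 8.23, the highest, and 6.88, against a median of 4.7 over the 23. They differed by -0.78 and -0.60 in wild-type livers and by -0.31 and -0.08 in knockout livers. Cyp2e1 had 1 of 13 and 5 of 13 called, and 11 and 10 without the 4 libraries. Its probe sets had a median log2 signal of 12.06 where the highest value in the table was 13.66, and whether that brightness compresses its difference was not tested.

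**Figure D3:**
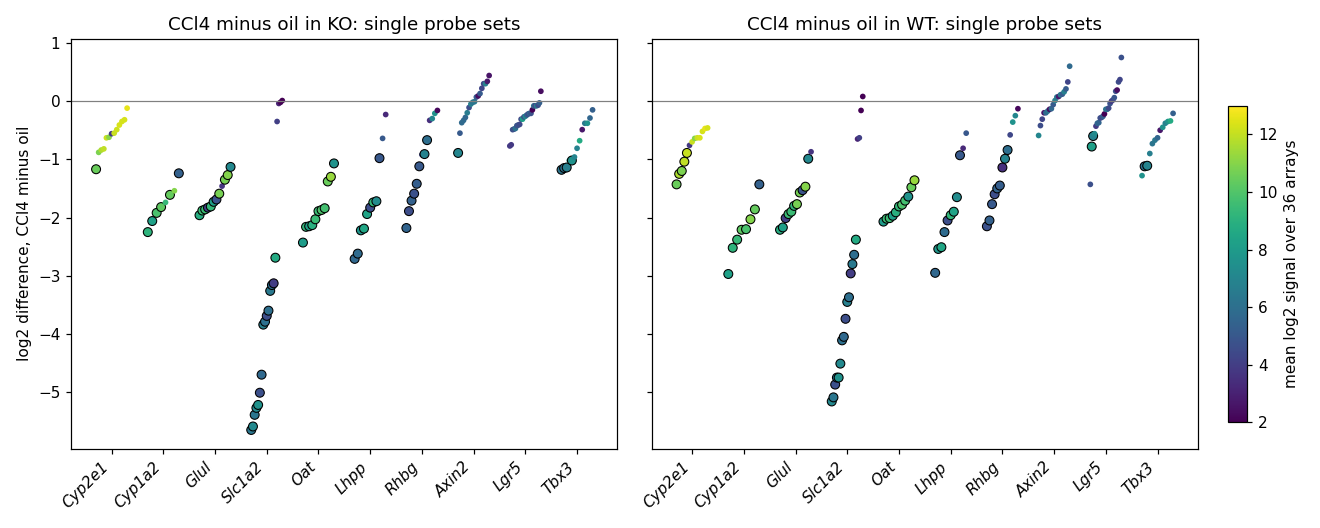
Log2 difference between CCl4 and oil for each probe set of the 10 genes, in knockout (left) and wild-type livers (right), coloured by mean log2 signal, with large outlined points for probe sets that passed the test. The 11 probe sets of Oat sit between -2.43 and -1.07 on the left, while those of Axin2 scatter around 0 on both sides.

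Between genotypes 0 of the 10 genes were called, after oil, after CCl4 or in the interaction, the difference between the CCl4 changes of knockout and wild-type livers. Over all genes 0.0346% were called after oil, 0.0518% after CCl4 and 0% in the interaction. With the 4 libraries left out these shares were 0.0518%, 0.423% and 0.00432%, and again 0 of the 10 genes were called. None of the 10 had an unadjusted p under 0.05 in any of the 3 contrasts (0 of 10 in each), in either set of libraries. After CCl4, knockout minus wild type was 0.02 for Cyp2e1 (95% interval -0.45 to 0.49), -0.05 for Glul (-0.71 to 0.60) and -0.57 for Slc1a2 (-1.38 to 0.23). Leaving out the 4 libraries narrowed these to -0.07 (-0.37 to 0.22), 0.06 (-0.28 to 0.39) and -0.20 (-0.47 to 0.07). After oil the 10 differences ran from -0.40, for Rhbg (-0.83 to 0.04), to 0.09, for Lgr5 (-0.35 to 0.52). The interaction was 0.22 for Cyp2e1 (-0.45 to 0.89) and 0.06 for Glul (-0.87 to 0.99). These intervals leave room for genotype differences of some size, and Dpt itself, the deleted gene, fell by 4.38 ± 0.53 in knockout relative to wild-type livers after CCl4 (adjusted p = 1.9e-05) but was not called after oil (-2.06 ± 0.53, adjusted p = 0.655). Once the 4 libraries were left out, Dpt fell by 4.67 ± 0.16 after CCl4 and fell by 2.45 ± 0.15 after oil (adjusted p = 2.79e-21 and 2.81e-13).

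The rest of the pathway was described by lists, with values in knockout livers before those in wild-type livers. Among all genes 9.89% fell and 13.4% rose in knockout livers and 11.3% fell and 13.2% rose in wild-type livers, so 1 or 2 calls in a list of about 10 genes lie near these shares. A list gene named for 1 genotype was not called in the other, and that difference was not called for any gene in the interaction over all 36 libraries. Of 9 other Wnt target genes, 2 fell in knockout livers and 1 fell and 1 rose in wild-type livers, with medians of -0.18 and 0.08. Notum, a secreted enzyme that inactivates Wnt and is itself a Wnt target, fell by 0.91 ± 0.27 in knockout and by 1.30 ± 0.28 in wild-type livers. Znrf3, which removes Wnt receptors from the membrane, fell by 0.36 ± 0.11 in knockout livers, and the factor Tcf7 rose by 0.37 ± 0.14 in wild-type livers. The call of Tcf7 was lost without the 4 libraries (0.31, adjusted p = 0.101), where 3 of the 9 fell in knockout and 2 in wild-type livers and 0 rose, and with arrays centred on their medians (0.28, adjusted p = 0.0865).

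Among 10 ligands and genes of their secretion, 3 rose and 0 fell in each genotype, with medians of 0.17 and 0.11. Wls, the carrier that brings Wnt proteins to the cell surface, rose by 1.43 ± 0.23 in knockout and 1.46 ± 0.24 in wild-type livers, and Wnt4 rose by 0.71 ± 0.22 and 0.67 ± 0.24. Wnt5a rose by 0.47 ± 0.14 in knockout livers, and Rspo1 by 0.76 ± 0.29 in wild-type livers, a call lost under centring (0.67, adjusted p = 0.0531). Without the 4 libraries 5 rose in knockout livers, and 4 rose and 1 fell in wild-type livers. Wnt2 and Wnt9b, which liver endothelium makes for the pericentral zone, are named beyond the rule for named genes, after their values were seen. They were not called, with Wnt2 at -0.12 ± 0.15 and 0.05 ± 0.16 and Wnt9b at 0.02 ± 0.13 and -0.11 ± 0.14. The mean of 10 markers of central vein and sinusoidal endothelium was 5.45 to 6.19 in knockout CCl4 livers and 5.73 to 6.19 in wild-type CCl4 livers, against 5.64 to 6.18 in knockout oil livers and 5.68 to 5.94 in wild-type oil livers. Wnt2, Wnt9b and Rspo3 are among these markers, so the mean is not separate from the ligands.

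Secreted antagonists gave 2 rises and 1 fall among 10 in knockout livers and 3 rises in wild-type livers, with medians of 0.07 and 0.05. Frzb, which binds Wnt outside the cell, rose by 1.77 ± 0.25 and 1.71 ± 0.26, and Dkk3, a member of the Dickkopf family, by 1.05 ± 0.15 and 0.99 ± 0.16. Sfrp1 rose by 0.91 ± 0.30 in wild-type livers, and Wif1 fell by 0.24 ± 0.08 in knockout livers. Markers of stellate cells and myofibroblasts, the matrix-forming cells (8 of 8 measured), moved with these rises, at a mean of 7.62 to 8.12 in knockout CCl4 livers and 6.65 to 8.12 in wild-type CCl4 livers. Those markers read 5.53 to 8.29 in knockout oil livers, with KO oil 10 at the top, and 5.67 to 6.06 in wild-type oil livers, and their part in the rises was not tested.

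Of 13 receptors, 2 fell and 1 rose in knockout livers, and 2 fell and 2 rose in wild-type livers, with a median of -0.04 in each, shares near those of all genes. Fzd8 fell by 1.00 ± 0.16 and by 0.89 ± 0.17, and Lgr4, an R-spondin receptor, fell by 0.87 ± 0.18 and by 0.67 ± 0.19. Fzd1 rose by 0.69 ± 0.14 and 0.67 ± 0.14, and Ryk rose by 0.24 ± 0.09 in wild-type livers (0.15 and not called under centring, adjusted p = 0.222). In the 15 genes of beta-catenin destruction and transcription, 1 fell and 3 rose in knockout livers, and 2 fell and 4 rose in wild-type livers, with medians of 0.08 and 0.18. Ctnnb1, which encodes beta-catenin, rose by 0.16 ± 0.06 and 0.21 ± 0.06, and the kinase Csnk1a1 rose by 0.27 ± 0.10 and 0.46 ± 0.10. Under centring Ctnnb1 was 0.08 and 0.12 and Csnk1a1 in knockout livers 0.19, none of them called (adjusted p = 0.34, 0.169 and 0.129). Dvl1, which passes the signal on from the receptor, fell by 0.42 ± 0.09 and by 0.37 ± 0.09. Bcl9, a beta-catenin co-activator, rose by 0.41 ± 0.13 in knockout livers, and Pygo1, its partner, by 0.78 ± 0.19 in wild-type livers, where Tcf7l2, a TCF factor, fell by 0.33 ± 0.11.

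Other pericentral genes fell in part. Of 22 measured of 23 listed, 10 fell and 1 rose in knockout livers and 9 fell in wild-type livers, with medians of -0.88 and -0.83. The P450 gene Cyp2c54 fell by 2.10 ± 0.53 and fell by 2.21 ± 0.56, the uptake carrier gene Slco1b2 fell by 1.58 ± 0.52 and fell by 1.69 ± 0.55, and Cyp27a1, of bile acid synthesis, fell by 1.51 ± 0.29 and by 1.50 ± 0.30. Cyp2c50 fell by 1.72 ± 0.50 and by 1.43 ± 0.53, Cyp2a5 fell by 1.60 ± 0.33 and by 1.06 ± 0.35, and Cyp2c37 fell by 2.05 ± 0.63 in knockout livers. Slc13a3, a dicarboxylate carrier named as the only rise after its value was seen, rose by 1.05 ± 0.36 in knockout livers. Rgn fell by 1.50 ± 0.51 and by 1.55 ± 0.54. The Cyp2c genes are near-identical copies of each other, so their signals may be shared. Without the 4 libraries 14 fell and 2 rose in knockout livers, and 12 fell and 1 rose in wild-type livers. Of 5 genes of P450 electron supply and haem, 2 fell and 1 rose in knockout livers, and 1 fell and 1 rose in wild-type livers. Hmox1, which breaks down haem and is also made by macrophages, whose markers moved with it as given above, rose by 1.66 ± 0.24 and 1.02 ± 0.25. Cyb5r3, which reduces cytochrome b5, fell by 0.54 ± 0.12 and by 0.43 ± 0.13. Cyb5a, cytochrome b5 itself, fell by 0.51 ± 0.17 in knockout livers.

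Periportal genes fell as well in part. Of 15 measured periportal genes (17 listed), 6 fell in each genotype, with medians of -0.80 in knockout and -0.64 in wild-type livers, and -0.39 and -0.31 without the 4 libraries. Etnppl, a lyase of phosphoethanolamine, fell by 2.28 ± 0.44 and fell by 1.69 ± 0.46, and Sds, serine dehydratase, fell by 1.59 ± 0.44 and by 1.65 ± 0.46. Otc, of the urea cycle, fell by 1.46 ± 0.48 and by 1.37 ± 0.50, and Hal, which breaks down histidine, fell by 1.45 ± 0.47 and by 1.39 ± 0.50. Without the 4 libraries 10 fell and 1 rose in knockout livers, and 6 fell and 1 rose in wild-type livers. Of 12 hepatocyte genes without strong zonation, 1 fell in knockout and 2 fell in wild-type livers, a share near that of all genes, with medians of -0.52 and -0.50, and -0.18 and -0.22 without the 4 libraries. Cebpa, a hepatocyte transcription factor, fell by 0.87 ± 0.23 and by 1.77 ± 0.25, and Apoa2 fell by 0.82 ± 0.30 in wild-type livers. In this list 5 fell and 1 rose in knockout livers and 6 fell in wild-type livers once the 4 libraries were left out. The corresponding medians for the 10 pericentral genes without the 4 libraries were -1.36 and -1.65, and these differences between lists were not tested.

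**Figure D4:**
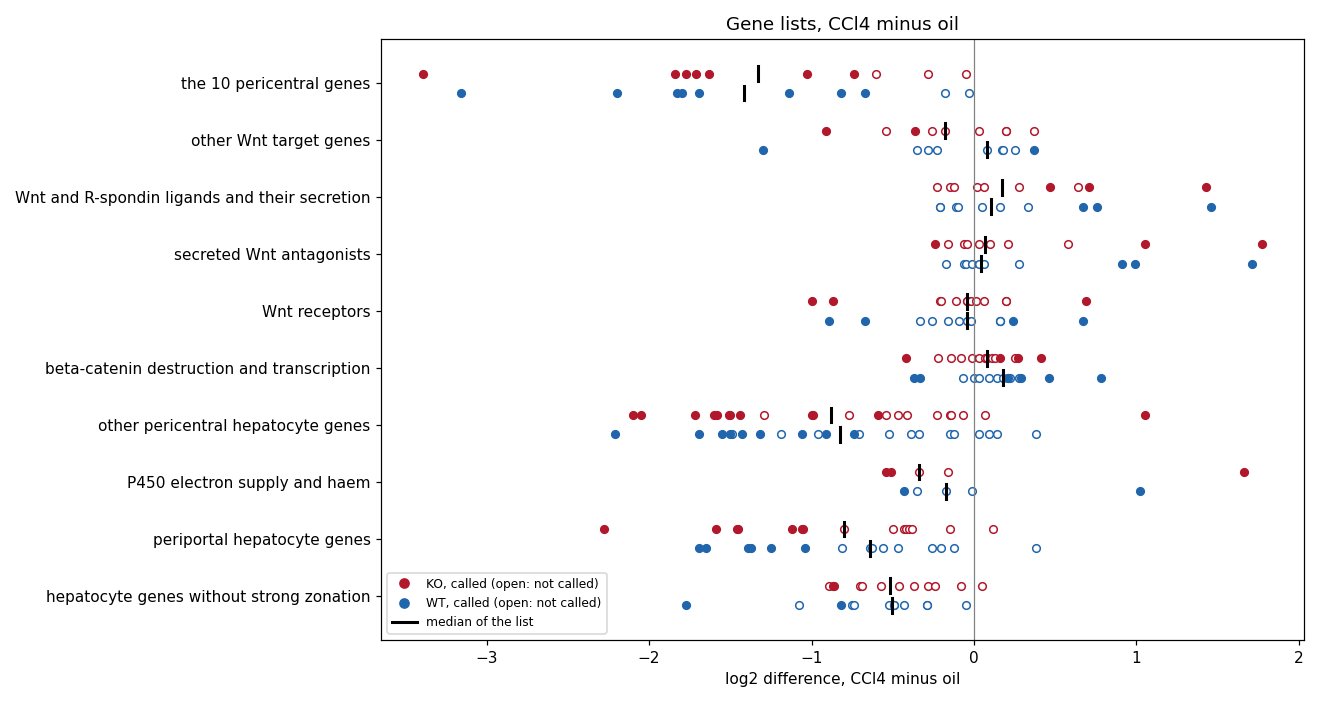
Log2 difference between CCl4 and oil for each gene of the lists, knockout above wild type in each row, filled where called, with the median of the list as a black bar. The 10 pericentral genes have medians of -1.33 in knockout and -1.41 in wild-type livers, and the 5 lists of Wnt pathway genes have medians between -0.18 and 0.18.

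Because Cyp2e1 activates CCl4, its level was set against the other 9 genes and Col1a1 across the 18 CCl4 livers, with group means removed, as 10 relations. By Pearson's r 0 of 10 passed after adjustment, and 3 had an unadjusted p under 0.05. Axin2 had the highest r, 0.68 (permutation p = 0.00521, adjusted 0.0521; Spearman's rho 0.81, permutation p = 0.00025, adjusted 0.0025), then Cyp1a2 at 0.60 (permutation p = 0.0156, adjusted 0.0782; rho 0.71, p = 0.00185, adjusted 0.00925). Lgr5 gave 0.53 (permutation p = 0.0287, adjusted 0.0956; rho 0.65, p = 0.00624, adjusted 0.0208). Livers with more Cyp2e1 signal thus had more Axin2, Cyp1a2 and Lgr5 signal by rank. Col1a1 gave -0.39 (permutation p = 0.153, adjusted 0.251; rho -0.28, p = 0.276, adjusted 0.394), and Glul 0.19 (permutation p = 0.464, adjusted 0.465; rho 0.19, p = 0.467, adjusted 0.583).

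Which relations passed depended on a few libraries. Without the 2 farthest from the median of Cyp2e1, WT CCl4 3 at 9.56 and KO CCl4 3 at 9.93, r was 0.83 for Axin2 and 0.78 for Rhbg (permutation adjusted p = 0.00415 for both), 0.69 for Tbx3, 0.55 for Glul, 0.45 for Cyp1a2, 0.37 for Lgr5 and -0.35 for Col1a1. Without the 3 CCl4 libraries set aside, Rhbg gave 0.77 and Axin2 0.76 (permutation adjusted p = 0.00915 each) and Cyp1a2 0.69 (permutation adjusted p = 0.0257), while Glul gave -0.12. Within the 9 knockout CCl4 livers alone Axin2 gave 0.75 (exact permutation p = 0.0203, adjusted 0.141), and within the 9 wild-type CCl4 livers 0.65 (exact permutation p = 0.0566, adjusted 0.189). Cyp1a2 gave 0.07 in the knockout (exact permutation adjusted p = 0.932) and 0.95 in the wild-type CCl4 livers (exact permutation adjusted p = 0.00289). Spearman's rho for Cyp1a2 was 0.55 and 0.87 (exact permutation adjusted p = 0.221 and 0.0359). The lowest Cyp1a2 values of these groups, 4.73 and 4.48, belong to KO CCl4 5 and WT CCl4 3, which are among the libraries set aside. The difference between the genotypes in this relation was not tested.

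**Figure D5:**
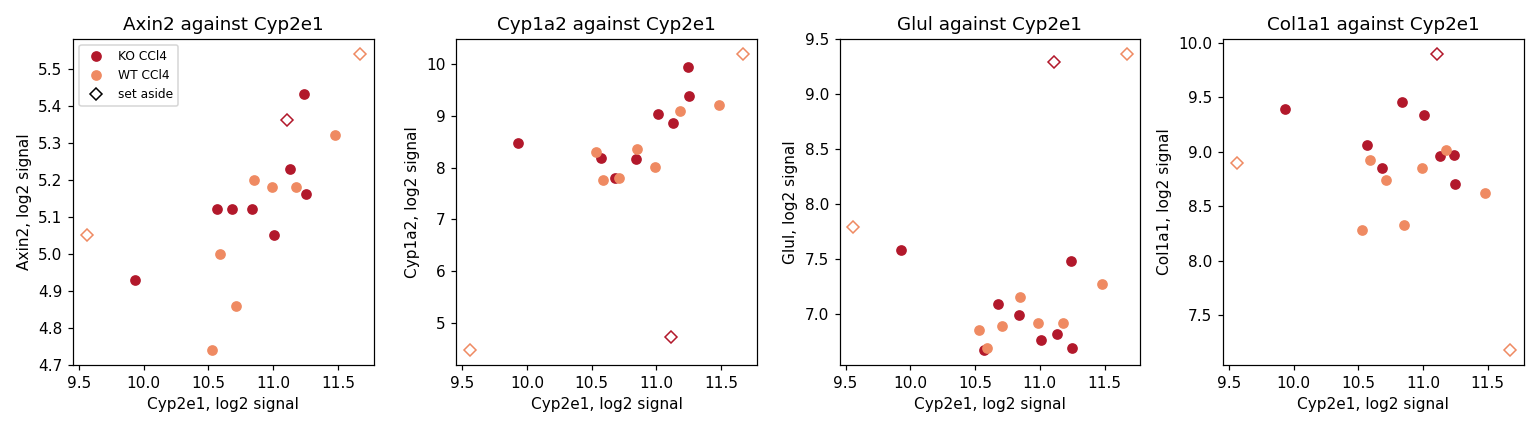
Log2 signals of Axin2, Cyp1a2, Glul and Col1a1 against that of Cyp2e1 in the 18 CCl4 livers, knockout dark and wild type light, with the 3 CCl4 libraries set aside as open diamonds. Axin2 rises with Cyp2e1 (rho 0.81), while Glul shows no order (rho 0.19) and its highest values are open diamonds.

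Genes whose pattern was most like the mean of the 7 enzyme and transporter genes were ranked by Pearson's r over the 36 arrays after removal of group means, as a description. The highest 5 were Gphn (0.864), Mccc2 (0.857), 1700080G11Rik (0.832), Prodh (0.83) and Acss2 (0.829). Without the 4 libraries the highest 5 were Lrtm1 (0.717), 1700080G11Rik (0.717), Acss3 (0.711), Tcn2 (0.691) and Rdh16 (0.685), so that 1700080G11Rik is in both. The arrays share the same 4 libraries that stood apart, which the likeness over all 36 includes.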

How the data were processed

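Liver RNA of 36 mice was hybridised to 36 arrays. The authors deposited log2 signals per probe set, made with RMA per the submitters' processing notes. For RMA, no version or build is stated (not given in the sources used here). Another deposited table has 36 columns whose names match no sample and was not used. Of 269479 probe sets, 233753 carry 1 gene symbol in the platform annotation and were kept, and 5139 with several and 30587 with none were left out. Probe sets of 1 symbol were averaged, which gave 23152 genes (2189 symbols updated). A model with 1 mean per group over all 36 arrays was fitted in limma 3.58.1 (R 4.3.3) with empirical Bayes variances, and a gene was called at a Benjamini-Hochberg adjusted p under 0.05 over all genes. Tests are two-sided, and errors of log2 differences are standard errors. Pandas 2.3.3, scipy 1.17.1 and numpy 2.4.6 (Python 3.11.15) served for tables and permutation tests (100000 permutations, exact with 9 livers). The fit was tested on simulated data. Arrays have no read depth, so their number limits the precision. The 10 genes and all lists were chosen with earlier results of these data known. Of each list up to 4 called genes per genotype are named, by size of change. Alternatives were the median of probe sets, a minimum mean signal of 5 per probe set, array centring, robust variances, fits of the compared groups only, a replicate block, a hepatocyte covariate, and leaving out libraries. That each library is a separate mouse is read from the labels, and p-values measure the spread between these samples.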

Additional observations from a re-analysis of the deposited data

Results flagged for a closer look

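Within groups of 8 to 10 libraries, a value was singled out when its gap to the next one was large for the range of the group (Dixon's test at 95%). Of 48 groups, 22 held such a value, 18 of them among the 40 groups of the 10 pericentral genes. For a single group chance gives about 1 in 20. The genes share the same libraries, so the 48 groups are not separate tests and their count cannot be set against that rate.

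KO oil 10 accounts for 8. It was lowest of the knockout oil libraries for Cyp2e1 (9.65, next 11.42), Cyp1a2 (7.53, next 10.23), Glul (7.14, next 8.30), Slc1a2 (3.53, next 6.86), Oat (8.45, next 9.87) and Lhpp (5.75, next 6.89), and highest for Dpt (7.40, next 3.87) and Col1a1 (9.26, next 5.88). WT CCl4 1 accounts for 6. It was highest of the wild-type CCl4 libraries for Glul (9.37, next 7.79), Slc1a2 (7.07, next 4.16), Lhpp (7.47, next 5.89) and Rhbg (5.90, next 5.10), and lowest for Dpt (3.18, next 7.48) and Col1a1 (7.18, next 8.28).

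KO CCl4 5 was lowest of its group for Cyp1a2 (4.73, next 7.81) and Lgr5 (3.42, next 4.50) and highest for Glul (9.29, next 7.58). WT CCl4 3 was lowest for Cyp1a2 (4.48, next 7.77) and Lgr5 (3.53, next 4.53). KO CCl4 1 had the highest Slc1a2 of its group (4.30, next 3.71). WT oil 1, a library with Y-linked transcripts, had the lowest Glul (8.25, next 8.92) and Rhbg (5.17, next 5.85).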

How the results depend on the processing

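Over the settings tried, 5 to 8 of the 10 genes fell in knockout livers and 6 to 8 in wild-type livers, 0 rose, and 0 were called between genotypes or in the interaction. Leaving out 1 library at a time gave 7 to 8 in each genotype. The lowest counts came without the 6 Y-expressing libraries (5 in knockout, 7 in wild-type livers) and, in wild-type livers, with a hepatocyte mean as covariate or without the 7 libraries with other tissue markers (6 each). Of all 23152 genes, 1435 fell in knockout and 1462 in wild-type livers without the 6, against 2289 and 2618 over all 36 libraries. In wild-type livers 1606 fell with the covariate and 1277 without the 7, a fit that kept WT CCl4 1. With the 4 libraries set aside left out besides the 6 Y-expressing ones, no call made over all 36 libraries was lost. Among 2440 values of the 10 genes in the 5 contrasts under these settings, 0 called differences turned direction, 18 lost their call, 14 gained one, and 156 not called in either fit changed sign, the cause of which was not tested. Relations of Cyp2e1 that passed by Pearson's r numbered 0 over all CCl4 livers, 4 without the 2 libraries farthest from its median, 6 without the 2 with low periportal genes, 3 without the 3 libraries set aside, 0 within knockout and 2 within wild-type livers. Cyp2e1 in wild-type livers was not called with the hepatocyte covariate (-0.66, adjusted p = 0.055). Replicate numbers do not pair the libraries: of 51 same-number pairs 14 correlated over 0.1 (median 0.01), and 4 of 36 libraries correlated best with their own number. With the replicate number as a block, 8 fell in each genotype, where 2926 of all genes fell in knockout and 2660 in wild-type livers. Cyp2e1 in knockout livers was then -0.80 (adjusted p = 0.000202). No background level comes with these values, so no limit by signal was set.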
